A study of Mus musculus with 26 samples.

Results

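The comparison described here set the E294K rescue of Prdm14-/- mouse embryonic stem cells (mESCs) against the rescue with wild-type Prdm14, here called FH-Prdm14. It used 4 of the 15 RNA-seq libraries of a series of 26 samples, 2 for each protein, and the genes with at least 1 RPKM (reads on a gene scaled to its length and to all reads of the library) in 2 or more of the 4 libraries, which were 12529 of 24015. All lines came from Stella:GFP mESCs, which carry a green fluorescent reporter of the Stella (Dppa3) gene. Both Prdm14-/- clones, G6 and F10, had been made with a guide RNA in exon 2 of Prdm14 and grown from single cells, and each was then reconstituted with FLAG-HA tagged Prdm14 cDNA, either wild type (FH-Prdm14) or E294K, so that each protein was measured in the background of the same parental clones. The cells were kept in 2i+LIF, a medium with inhibitors of MEK and GSK3β, and then spent 5 days without feeders in serum+LIF before RNA was taken. The question was which genes the rescuing protein no longer sets to the same level once it cannot bind its partner Mtgr1. The Prdm14-/- libraries (2), wt serum+LIF (1) and wt 2i+LIF (2) are given beside them as levels.

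Prdm14 is a zinc finger protein with a SET-related domain that binds DNA, keeps mESCs in the naive state and is needed for primordial germ cells. It is known to hold down FGF signalling and the de novo DNA methyltransferases. Mtgr1, encoded by Cbfa2t2, is a member of the ETO family, whose proteins carry corepressors with histone deacetylases to sites where a DNA-binding partner sits. The glutamate that E294K replaces lies in the SET domain of Prdm14, at the surface that touches Mtgr1. The study designed the exchange to lysine from its crystal structure and found that binding to Mtgr1 was no longer detected.

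The codon that the mutation changes is shown because the compared proteins differ there. Prdm14 lies on chromosome 1 of NCBIM37 (mm9) at 13103538 to 13117244 on the minus strand, and the codon of this glutamate lies in coding exon 3 of 7, at 13114444 to 13114446. In the GENCODE transcript, whose coding sequence has 561 codons before the stop, codons 284 to 304 read as follows, with that codon (glutamate in the wild type, changed in E294K) in capitals.
Prdm14 codons 284 to 304: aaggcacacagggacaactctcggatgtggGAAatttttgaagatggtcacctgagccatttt

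The 4 compared libraries had between 12847489 and 16419718 reads on genes, within the range of 10668572 to 21218414 over all 15. Markers of mESCs were high in all 4, with Pou5f1 between 634 and 780 RPKM and Sall4 between 85.9 and 108 RPKM, while of 10 fibroblast and feeder markers Lum and Postn were listed at 0, Thy1 was between 10.4 and 12.4 RPKM and the others stayed under 5 RPKM. The 15 libraries fell into 2 kinds that cut across the conditions. In 6 libraries (both Prdm14-/-, both FH-Prdm14, the first wt 2i+LIF and Mtgr1-/- clone C3), reads on replication-type histone genes came to between 29.9 and 64.3 per 1e6 reads. The other 9, both E294K libraries among them, had between 119 and 610 per 1e6 reads. The same split appeared in Eno1 (14.8 to 27.3 against 76.9 to 226 RPKM) and in the genes of highest GC content. Histone messages end without a poly(A) tail. Each E294K library was thus of one kind and each FH-Prdm14 library of the other, so that for these 4 libraries the kind of library and the protein cannot be told apart. In FH-Prdm14, histone genes took 64.3 (G6) and 42.3 (F10) reads per 1e6 reads, and in E294K 203 (G6) and 363 (F10).

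**Figure D1:**
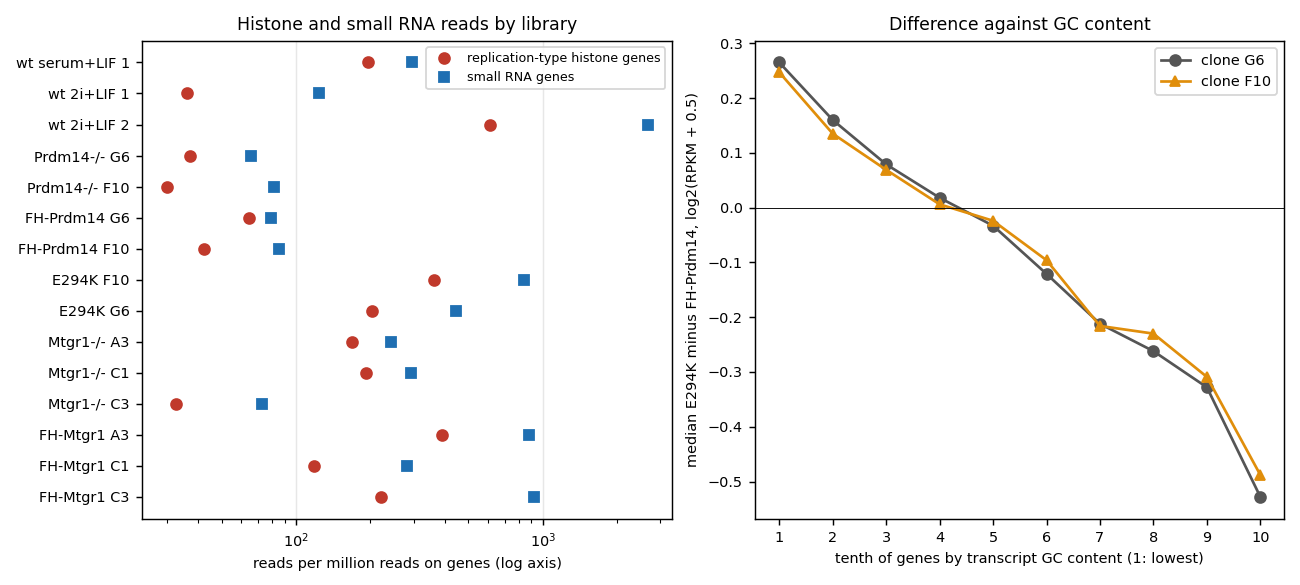
Left, reads per 1e6 reads on genes that fell on replication-type histone genes (circles) and on small RNA genes (squares) in each of the 15 libraries, on a log axis. Right, median difference between E294K and FH-Prdm14 in log2(RPKM + 0.5) for genes in 10 classes of transcript GC content, with circles for clone G6 and triangles for clone F10. Histone reads lay between 29.9 and 64.3 per 1e6 reads in 6 libraries and above 119 in the others, and the median difference fell from 0.26 in the class of lowest GC content to -0.51 in the highest.

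The Mtgr1-/- clones and the wt 2i+LIF pair hold libraries of both kinds, and a term for the kind of library could be estimated from them. Fits with this term, chosen after the data were seen, used all 15 libraries without or with the parental clone as a block, or the 13 libraries without the wt 2i+LIF pair. The term rests on 1 library against the rest in each of these conditions, so that what else sets Mtgr1-/- clone C3 or the first 2i+LIF library apart enters it too. The Y-linked genes did not follow the clone names, as Ddx3y was at 0.595 RPKM in Prdm14-/- clone G6, 1.69 in FH-Prdm14 G6 and 4.73 in E294K G6. Nothing in the labels says that the clones were grown more than once, so that p-values measure the spread between these libraries.

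The amount of rescue RNA did not separate both proteins. Prdm14 was at 105 and 89.9 RPKM in E294K (here and below clone G6 first, then F10) and at 116 and 79.8 RPKM in FH-Prdm14, so that the groups overlapped. The log2 fold change was 0.011 (standard error, SE, of 0.27, limma adjusted p = 0.977). These levels lay above the 30.8 and 19.1 RPKM of wt cells in 2i+LIF and the 2.77 RPKM of wt cells in serum+LIF, and the remaining message of the Prdm14-/- clones came to 1.96 and 3.60 RPKM. Cbfa2t2, which encodes Mtgr1, was at 31.4 and 32.6 RPKM in E294K and 27.4 and 30.3 RPKM in FH-Prdm14 (log2 fold change 0.15, SE 0.095, limma adjusted p = 0.234). The other ETO genes, Cbfa2t3 and Runx1t1, stayed under 1 RPKM in all 4 libraries and were not tested.

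In the main fit (limma on log2(RPKM + 0.5) over the 6 libraries of clones G6 and F10, with the clone as a block), 2222 genes were higher in E294K (17.7% of those tested) and 3410 were lower (27.2%), 45.0% in either direction. Of the 11734 genes that reached 1 RPKM in a library of each group, 17.8% were higher and 24.6% lower. A gene that passed the filter through 1 group alone had to differ, and the lists below are therefore counted over members that reached 1 RPKM in a library of each group, with these shares as background. Of all genes tested, those that passed through 1 group alone included, 388 were called at least 2-fold higher (3.10%) and 1061 at least 2-fold lower (8.47%). In 4493 genes (35.9%) both E294K libraries lay above both FH-Prdm14 libraries and in 5735 (45.8%) below. The differences of both clones had a Pearson r of 0.91 across genes, which are not independent replicates, and 303 genes were at least 2-fold higher and 855 at least 2-fold lower in each clone. The kind of library is shared by both clones, and these counts therefore hold it too. Fits with the histone term called 565 genes higher (4.51%) and 815 lower (6.50%) over 15 libraries, 1073 (8.56%) and 1066 (8.51%) with the block, and 469 (3.74%) and 846 (6.75%) over 13 libraries. These shares of all genes tested stand as background for the list counts in these fits below. Of the genes at least 2-fold lower in the main fit, 52.9%, 50.9% and 53.6% were called lower in these fits, and of those at least 2-fold higher, 46.9%, 54.1% and 45.9% were called higher. After an adjustment for GC content, 2619 genes were higher and 2401 lower among the 11354 genes with a GC value. The share of higher genes among those called was 52.2%, against 38.9% for the same genes without the adjustment.

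**Figure D2:**
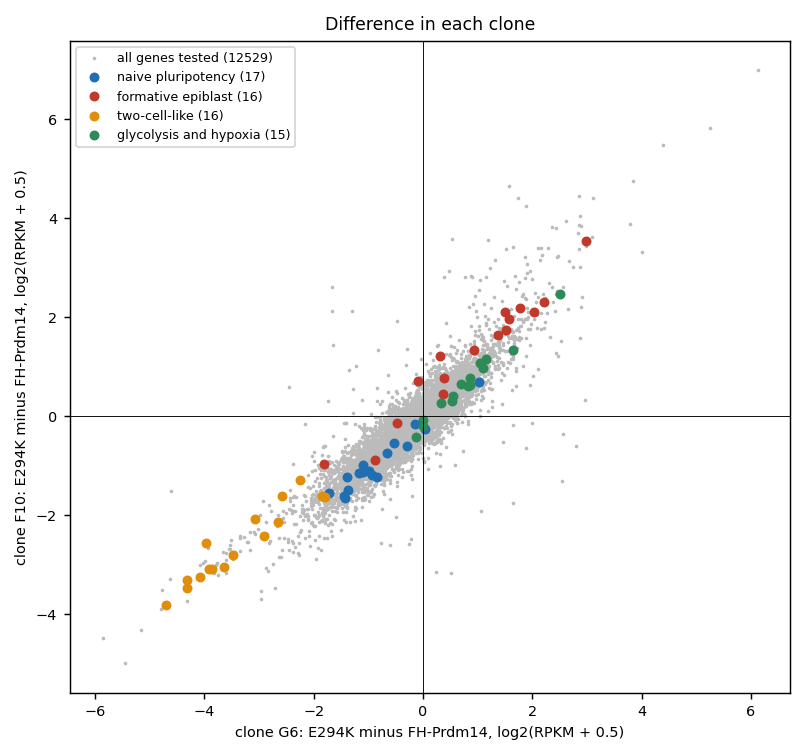
Difference between E294K and FH-Prdm14 in clone G6 (x axis) and clone F10 (y axis) in log2(RPKM + 0.5), 1 point per gene, for all 12529 genes tested (grey) and for 4 lists in colour. The two-cell-like genes lie at the lower left, the naive pluripotency genes mostly below 0 in both clones, and the formative genes mostly above 0.

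Among the genes with the largest rise, 10 of the 12 that the naming rule gave were histone or small RNA genes. Rmrp, the RNA of the RNase MRP, was at 822 and 1815 RPKM in E294K and at 11.3 and 13.8 RPKM in FH-Prdm14. It was at 106 and 5609 RPKM in the 2 wt 2i+LIF libraries, so that these libraries of 1 condition differed as well. Its log2 fold change of 6.55 (SE 0.25, limma adjusted p = 7.34e-05) went to 1.70 with the histone term over 15 libraries (adjusted p = 0.225). Of 50 histone genes tested, 48 were higher in both E294K libraries than in both FH-Prdm14 libraries (96.0%), and of 116 small RNA genes 47 (40.5%), near the 35.9% of all genes. The other 2 genes were Fam111a and Dnmt3b. Fam111a is a protease that acts at replication forks and in virus restriction. It was at 16.1 and 15.6 RPKM in E294K and 0.706 and 0.584 RPKM in FH-Prdm14. Fam111a thus passed the level filter only through E294K and had to differ. Its log2 fold change was 3.84 in the main fit and between 2.70 and 2.90 in the fits with the histone term.

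Genes without histones and small RNAs were then listed by the same rule, a choice made after values were seen. Car2, a carbonic anhydrase, was at 38.6 and 43.04 RPKM in E294K and 4.91 and 3.67 RPKM in FH-Prdm14, against 69.2 and 44.04 RPKM in Prdm14-/-. Eif4g3, a scaffold of translation initiation, was at 18.1 and 21.2 RPKM against 3.26 and 2.85 RPKM, with 14.7 and 14.6 RPKM in Prdm14-/-. Foxh1, the DNA-binding partner of Smad proteins under Nodal signals, was at 29.4 and 30.01 RPKM against 5.36 and 4.51 RPKM, and Podxl, a surface sialomucin, at 39.2 and 39.9 RPKM against 8.22 and 6.85 RPKM. In each of these genes, both E294K libraries lay above both FH-Prdm14 libraries. Their log2 fold changes in the main fit were 3.12, 2.50, 2.48 and 2.32, and all were called higher in each fit with the histone term (largest limma adjusted p = 0.00113). Cgnl1, a protein of cell junctions, was likewise called in each (12.4 and 12.8 RPKM against 1.44 and 1.14 RPKM). Not every gene of this list was. Trh, at 91.1 and 101 against 15.6 and 17.2 RPKM, was called only with the block. Its limma adjusted p was 0.0604 over 15 libraries without the block and 0.163 over 13. Eno1, also on this list, was called in none of these fits.

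**Figure D3:**
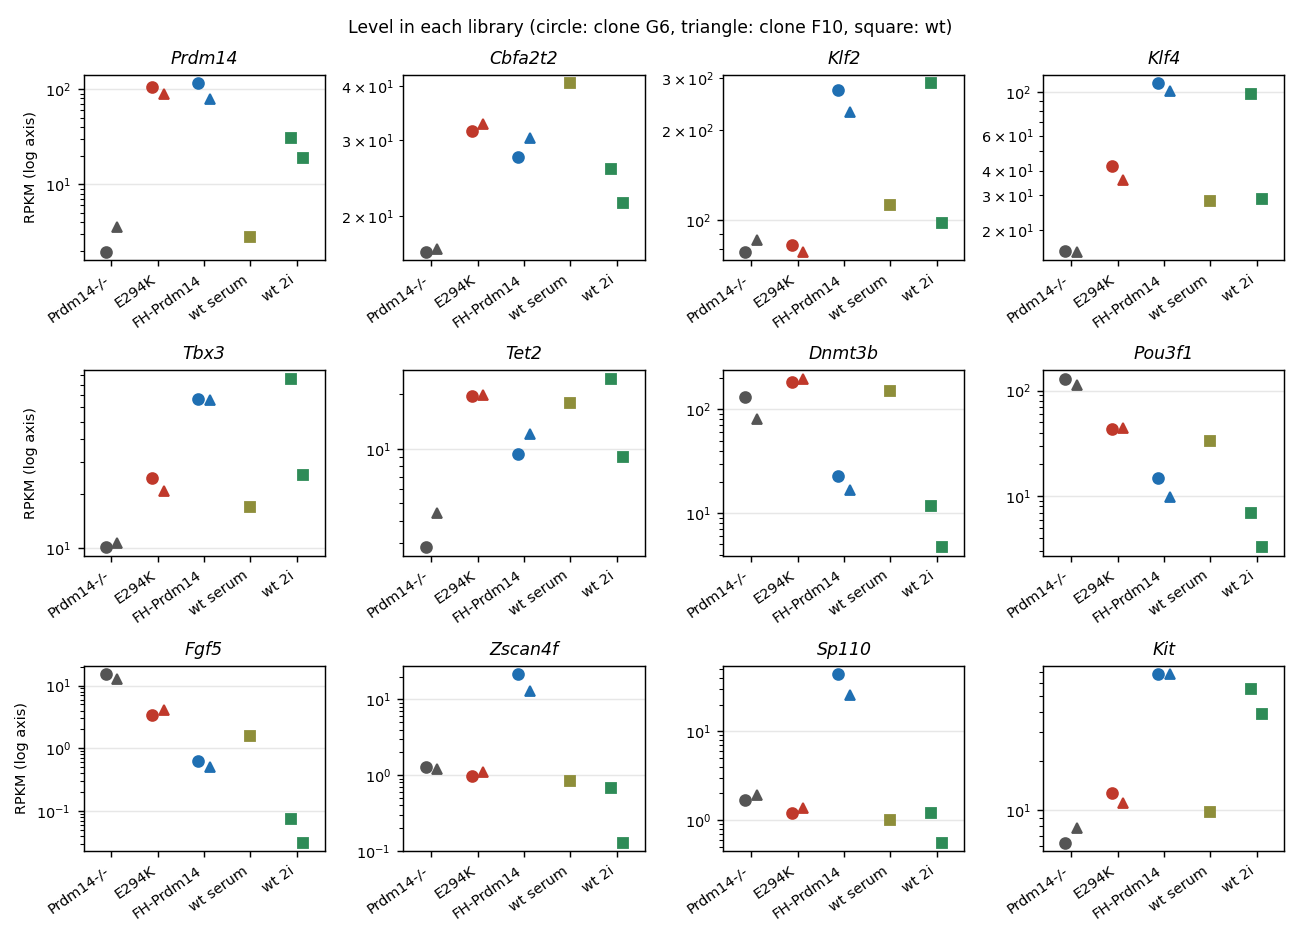
RPKM on log axes of 12 genes in the Prdm14-/-, E294K and FH-Prdm14 libraries (circles for clone G6, triangles for F10) and in wt cells in serum+LIF and 2i+LIF (squares). Prdm14 overlaps between E294K and FH-Prdm14, Dnmt3b and Pou3f1 are higher in E294K, and Zscan4f, Sp110 and Kit are lower. Fgf5 is higher too, but it passed the level filter only through E294K and had to differ.

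The two-cell-like genes fell together. These genes are switched on in the mouse embryo at the two-cell stage and in a rare, passing state of mESCs. Of 27 listed genes, 23 were in the files, 5 of these were listed at 0 in all 15 libraries, and 16 were tested. Of the 16, 9 had passed the level filter only through FH-Prdm14, where they are high, and are left out of the count. The other 7 (5 Zscan4 genes, Sp110 and Gm8300) were all lower in E294K (background 24.6%), with a median log2 fold change of -3.27 against -0.07 for all genes tested. Zscan4f, a zinc finger protein that lengthens telomeres in mESCs, was at 0.962 and 1.10 RPKM in E294K and 21.6 and 13.1 RPKM in FH-Prdm14. Prdm14-/- cells had 1.27 and 1.19 RPKM and wt cells in serum+LIF 0.827 RPKM, so that only the FH-Prdm14 libraries among these were high. Sp110, a nuclear body protein, was at 1.21 and 1.36 against 44.2 and 25.7 RPKM (log2 fold change -4.26, SE 0.23, limma adjusted p = 0.000119). Tdpoz3, of a family of embryonic BTB proteins and 1 of the 9, was at 0.744 and 0.499 against 24.5 and 10.5 RPKM. The summed RPKM of the list, the 9 genes included, was 11.9 and 12.7 in E294K, 247 and 138 in FH-Prdm14 and 13.6 and 12.3 in Prdm14-/-. The difference held in both clones, and FH-Prdm14 G6 was the higher of its pair. The 7 genes were called lower in each of the 3 fits with the histone term, with medians between -4.81 and -3.08.

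Of the 12 genes that the naming rule gave for the largest falls, 4 were on the two-cell-like list (Sp110, Tdpoz3, Tmem92 and Zscan4f), and 8 were on no list. Among the 8 was Dux, a homeobox gene known to switch on the two-cell programme. Dux was at 0.496 and 0.752 RPKM in E294K and 24.1 and 11.7 RPKM in FH-Prdm14 (log2 fold change -3.95). Gm8994 was at 4.95 and 3.52 against 237 and 126 RPKM and D17Ertd648e at 9.45 and 9.16 against 198 and 128 RPKM. The deubiquitinase genes Usp17lc and Usp17lb were at 0.185 and 0.323 against 18.6 and 11.8 and at 0.402 and 0.779 against 24.1 and 14.1 RPKM. Each had Prdm14-/- levels far under FH-Prdm14, as in Dux with 0.979 and 0.885 RPKM. Dux, Usp17lc, Usp17lb, Tdpoz3 and Tmem92 passed the level filter only through FH-Prdm14, where they are high, and had to differ. Zscan4, Usp17l, Tdpoz and Gm8300 genes have near-identical copies, and how reads were split among the copies was not tested.

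Naive pluripotency genes were mostly lower in E294K in the main fit. Of 17 tested, 13 were called lower (background 24.6%) and 1 higher (17.8%), with a median log2 fold change of -1.04 (-1.03 after the adjustment for GC content). Klf2, a Krüppel-like factor downstream of MEK inhibition, was at 82.4 and 78.3 RPKM in E294K and 273 and 230.5 RPKM in FH-Prdm14, with 78.2 and 85.9 RPKM in Prdm14-/-. Klf4, a target of LIF and Stat3, was at 42.3 and 35.9 against 111 and 101 RPKM, with 15.8 and 15.6 in Prdm14-/-. Both E294K libraries lay below both FH-Prdm14 libraries in each gene, and for Klf4 above Prdm14-/-. Tbx3, a T-box factor of the naive network, was at 24.4 and 20.7 against 66.5 and 66.1 RPKM (log2 fold change -1.54, SE 0.11, limma adjusted p = 0.000243). Esrrb, an orphan nuclear receptor, was at 88.1 and 83.1 against 139.9 and 139 RPKM, and Nanog, the homeobox factor at the core of the network, at 108 and 96.5 against 213 and 208 RPKM. The wt serum+LIF library, of the same kind as E294K, had Klf2 at 112, Klf4 at 28.0, Tbx3 at 16.9, Esrrb at 92.2 and Nanog at 91.2 RPKM. Both E294K libraries lay above it for Klf4, Tbx3 and Nanog and below it for Klf2 and Esrrb. Both FH-Prdm14 libraries lay above it for each of these genes. Zfp42 (Rex1), a widely used marker of the naive state, was at 313 and 278 against 306 and 332 RPKM, and the groups overlapped (log2 fold change -0.11, limma adjusted p = 0.753).

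Fewer of these calls remained in the fits with the histone term, and the reason was not tested. Over all 15 libraries without this term, fewer genes of any kind were called than in the main fit as well (675 or 856 higher, 1467 or 1780 lower). With the histone term over 15 libraries, 2 of the 17 naive genes were lower and none higher, with the block 1, and over 13 libraries 6. The medians were -0.57, -0.34 and -1.20. Klf2 went from a log2 fold change of -1.64 in the main fit to -0.72 (SE 0.53, adjusted p = 0.428), 0.028 and -1.20, none of them called. Its SE was 0.11 in the main fit and 0.58 over 13 libraries. Tbx3 and Esrrb were called in none (smallest limma adjusted p = 0.0626 and 0.211). Klf4 was at -0.58, -0.34 and -1.24, and was called only over 13 libraries (limma adjusted p = 0.0054). The pair of wt 2i+LIF libraries differed by the same genes, with Klf2 at 288 and 97.7 and Klf4 at 97.6 and 28.9 RPKM, the library with few histone reads first. The median difference of the naive list between these libraries was -0.92, and between Mtgr1-/- clones A3 and C3 0.28 and C1 and C3 0.32. Whether the wt 2i+LIF pair differs by the kind of library or by the state of the cells was not tested. Tcl1, a coactivator of the Akt kinase, was called lower in all 3 fits (18.3 and 17.7 against 50.9 and 54.7 RPKM, with 8.22 RPKM in wt serum+LIF).

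Tet2, which oxidises methylcytosine, was the naive gene called higher. It was at 19.6 and 19.8 RPKM in E294K and 9.40 and 12.1 RPKM in FH-Prdm14, against 2.85 and 4.40 RPKM in Prdm14-/- and 17.8 RPKM in wt cells in serum+LIF. Both E294K libraries lay above both FH-Prdm14 libraries, with a log2 fold change of 0.85 (SE 0.15, limma adjusted p = 0.00428). With the histone term it was 0.91 over 15 libraries and -0.095 over 13, not called in either. The factors shared by naive and later pluripotent cells changed less, as 3 of 10 were higher (background 17.8%) and 1 lower (24.6%), with a median of 0.09. Pou5f1 (Oct4) was at 780.3 and 728 against 634 and 708 RPKM (limma adjusted p = 0.314). Sox2, its partner on DNA, was lower at 302 and 278 against 481 and 449.9 RPKM (log2 fold change -0.68, limma adjusted p = 0.0049), and was called in none of the fits with the histone term (smallest adjusted p = 0.371). Lin28a, an RNA-binding protein that blocks let-7, was higher at 142 and 140.3 against 74.9 and 75.5 RPKM and was called in all 3.

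Genes of the formative epiblast, the state that follows naive pluripotency, were mostly higher in E294K. Of 17 listed genes 16 were tested, and Fgf5 and Car14 had passed the filter only through E294K. Of the other 14, 10 were higher (background 17.8%) and 2 lower (24.6%), with a median log2 fold change of 0.95. Dnmt3b, a de novo DNA methyltransferase, was at 182 and 198 RPKM in E294K and 22.8 and 16.6 RPKM in FH-Prdm14. Prdm14-/- cells had 131 and 81.4 RPKM and wt cells in serum+LIF 149.5 RPKM, so that both FH-Prdm14 libraries lay below all of these. The log2 fold change was 3.26 (SE 0.18, limma adjusted p = 0.000119). Pou3f1 (Oct6), a POU factor of the epiblast, was at 43.2 and 44.2 against 14.9 and 9.86 RPKM, with 130.3 and 114 in Prdm14-/-. Fgf5, a growth factor that marks the epiblast, was at 3.34 and 4.04 against 0.622 and 0.497 RPKM, with 15.3 and 12.8 in Prdm14-/-. For Pou3f1 and Fgf5, the E294K libraries lay between FH-Prdm14 and Prdm14-/-. Otx2, a homeobox factor that opens epiblast enhancers, was at 64.6 and 68.6 against 15.5 and 15.4 RPKM and Grhl2, a factor of epithelial enhancers, at 16.8 and 17.03 against 3.21 and 3.02 RPKM. Prdm14-/- had 34.2 and 57.1 RPKM of Otx2 and 12.3 and 11.35 RPKM of Grhl2. For Dnmt3b, Otx2 and Grhl2, both E294K libraries lay above both Prdm14-/- libraries.

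The fits with the histone term called 8, 9 and 7 of the 14 formative genes higher and none lower, with medians of 1.31, 1.62 and 1.27. Dnmt3b, Pou3f1, Otx2 and Grhl2 were called higher in each (largest limma adjusted p = 0.00854). Fgf5 is left out here, as it passed the level filter only through E294K. Of the 2 members called lower in the main fit, Foxd3, a forkhead factor of the exit from naive pluripotency, was at 20.4 and 19.9 against 37.98 and 37.2 RPKM, but its log2 fold change went from -0.88 to 0.92 with the term over 15 libraries. The other, Sox3, was at 4.84 and 4.63 against 18.4 and 9.44 RPKM and was not called with the term. Wnt8a was not tested, at 0.289 and 0.481 RPKM in E294K and 0 and 0.0455 RPKM in FH-Prdm14.

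**Figure D4:**
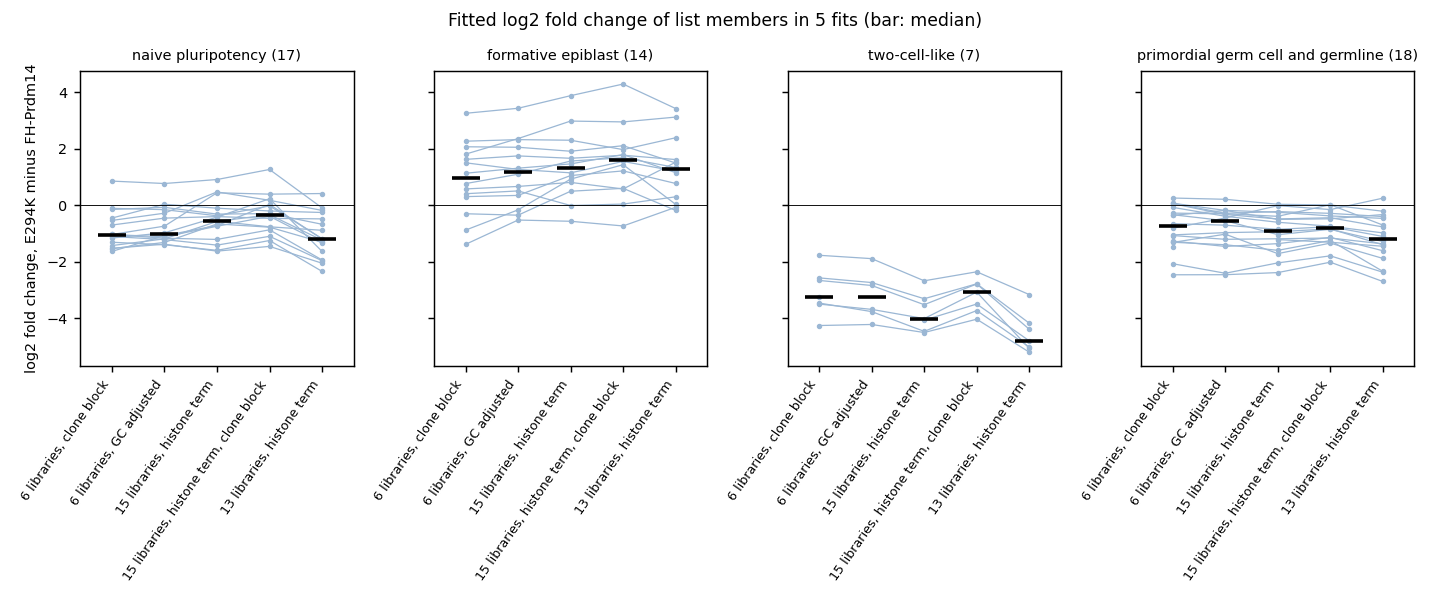
Log2 fold change between E294K and FH-Prdm14 of the members of 4 lists that reached 1 RPKM in a library of each group, in 5 fits, 1 line per gene, with the median of each list as a bar. The naive pluripotency median moves between -1.20 and -0.34, the formative median between 0.95 and 1.62, and the two-cell-like median between -4.81 and -3.08.

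Among the writers and erasers of DNA methylation, 6 of 9 tested genes were higher (background 17.8%) and none lower, with a median of 0.56. Dnmt3a, the second de novo methyltransferase, was at 31.7 and 34.4 against 10.8 and 10.00 RPKM, and Dnmt3l, their cofactor without catalytic activity, at 169 and 140.2 against 53.1 and 49.7 RPKM. Prdm14-/- had 15.01 and 17.7 RPKM of Dnmt3a and 87.4 and 81.02 RPKM of Dnmt3l, below both E294K libraries. Uhrf1, which brings Dnmt1 to newly copied DNA, was at 168 and 164 against 113 and 113 RPKM. In each fit with the histone term 4 genes were called higher, against 4.51%, 8.56% and 3.74% of all genes, and Dnmt3a, Dnmt3b, Dnmt3l and Uhrf1 were these (largest limma adjusted p = 0.0396). Tet1, a further methylcytosine oxidase, was at 57.9 and 64.8 against 47.4 and 48.3 RPKM and was called in the main fit but in none of these. In the summed RPKM of the list, E294K had 727 and 722, FH-Prdm14 342 and 333 and Prdm14-/- 434 and 368.

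Of the FGF receptor and ERK feedback list, 22 genes were tested, and Fgf5 and Fgf8 had passed the filter through 1 group alone. Of the other 20, 8 were higher (background 17.8%) and 4 lower (24.6%), with a median of 0.27, so that the lower genes were not above the background. The feedback genes of ERK did not move together. Dusp6, Spry1, Spry2 and Spry4 were higher, Dusp4 was lower, and Spred1, Spred2 and Il17rd were not called. Dusp4 was at 21.7 and 20.35 RPKM in E294K and 29.95 and 24.4 RPKM in FH-Prdm14. Dusp6, a phosphatase of ERK, was at 43.7 and 49.1 RPKM in E294K and 16.4 and 18.7 RPKM in FH-Prdm14, with 46.9 and 49.6 RPKM in Prdm14-/-. Ier3, an immediate early gene of the pathway, was at 40.00 and 42.8 against 7.93 and 9.77 RPKM, and Spry2, an inhibitor of receptor tyrosine kinase signals, at 49.5 and 50.05 against 27.8 and 26.9 RPKM. Of the receptors, Fgfr4 was lower at 1.66 and 1.92 against 5.59 and 5.78 RPKM and Fgfr3 at 0.828 and 1.14 against 3.33 and 3.14 RPKM. Fgfr2, which Prdm14 is known to hold down, was at 2.28 and 2.38 against 2.13 and 1.34 RPKM with 14.6 and 12.2 in Prdm14-/-, and was not called (log2 fold change 0.36, SE 0.17, limma adjusted p = 0.119). In the fits with the histone term, 6, 5 and 4 of the 20 genes were higher and 2 lower in each. Spry2 was not called over 13 libraries (limma adjusted p = 0.058), and Fgfr3 not with the block (limma adjusted p = 0.0717). Dusp6, Ier3 and Fgfr4 were called in each (largest limma adjusted p = 0.0247).

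Primordial germ cell and germline genes were lower or not called. Of 18 tested, 10 were lower (background 24.6%) and none higher, with a median of -0.73. Kit, the receptor of stem cell factor in germ cells, was at 12.7 and 11.1 RPKM in E294K and 67.6 and 67.9 RPKM in FH-Prdm14. It was at 6.33 and 7.74 RPKM in Prdm14-/-, 9.74 RPKM in wt serum+LIF and 55.1 and 38.9 RPKM in wt 2i+LIF. Both E294K libraries thus lay above the wt serum+LIF library. The log2 fold change was -2.46 (SE 0.13, limma adjusted p = 0.000115). Dazl, a translation regulator of germ cells, was at 2.50 and 2.55 against 13.4 and 11.2 RPKM. Tfap2c, an AP-2 factor needed for germ cell specification, was at 14.01 and 12.2 against 38.6 and 35.4 RPKM. Wt serum+LIF had 2.25 RPKM of Dazl and 18.99 RPKM of Tfap2c. Prdm14-/- had 2.88 and 3.86 RPKM of Dazl and 27.2 and 30.3 RPKM of Tfap2c, the latter above both E294K libraries. Both E294K libraries lay below both FH-Prdm14 libraries in Kit, Dazl and Tfap2c. Dppa3 (Stella) was at 18.9 and 21.2 against 50.6 and 50.3 RPKM, where the Stella:GFP reporter of all lines carries part of that gene, and it was not called with the histone term and the block (limma adjusted p = 0.0799). The 3 fits with the histone term called 9, 7 and 8 genes lower and none higher, and Kit, Dazl and Tfap2c in each (largest limma adjusted p = 0.0137).

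Of the extraembryonic endoderm list, 18 of 24 genes were tested, and Dab2 and Cubn had passed the filter only through E294K. Of the other 16, 7 were higher (background 17.8%) and 1 lower (24.6%), with a median of 0.46. Krt8 and Krt18, keratins of simple epithelia, were at 62.97 and 62.99 against 22.9 and 18.01 RPKM and at 63.3 and 65.4 against 29.9 and 21.7 RPKM, far under the 549 and 396 and 575 and 466 RPKM of Prdm14-/-. Dab2, an endocytic adaptor of the visceral endoderm, was at 5.31 and 8.36 against 0.992 and 0.657 RPKM, and Anxa3, an annexin, at 4.64 and 5.49 against 1.90 and 1.95 RPKM. Of the lineage factors, Gata6 was at 1.18 and 1.54 against 1.61 and 1.34 RPKM (limma adjusted p = 0.847). Gata4 was at 1.74 and 2.69 against 1.03 and 0.917 RPKM, with both E294K libraries above both FH-Prdm14 libraries, and was not called (log2 fold change 0.86, limma adjusted p = 0.0739). Sox17, Sox7 and Foxa2 were not tested. Krt19 was at 24.7 and 26.9 against 23.5 and 18.1 RPKM and was not called (log2 fold change 0.32, limma adjusted p = 0.0812). Sparc, a matrix protein, was lower at 82.2 and 86.5 against 106 and 112 RPKM, and was called in none of the fits with the histone term (smallest limma adjusted p = 0.086). In those fits, 6, 7 and 4 of the 16 genes were called higher and none lower. Among 6 trophoblast genes, 1 was lower (background 24.6%) and none higher (17.8%), with a median of -0.29. The lower gene was Krt7, at 8.64 and 8.83 against 12.3 and 12.03 RPKM. None of the 6 was called with the histone term.

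Of 22 imprinted genes tested, 10 were higher (background 17.8%) and 5 lower (24.6%), with a median of 0.42, so that the lower genes were not above the background. Peg10, a gene derived from a retrotransposon, was at 197 and 183 RPKM in E294K and 26.6 and 22.1 RPKM in FH-Prdm14 (log2 fold change 2.94, SE 0.24, limma adjusted p = 0.000302). Igf2, a growth factor, was at 13.5 and 11.4 against 2.10 and 1.65 RPKM. H19, a noncoding RNA beside Igf2, was at 143 and 187 against 51.4 and 51.99 RPKM, and Sgce, which shares a promoter region with Peg10, at 4.76 and 5.62 against 1.91 and 2.47 RPKM. In the fits with the histone term, Peg10, Igf2 and Sgce were called higher in each and H19 in none (smallest limma adjusted p = 0.118), and 4, 7 and 4 genes of the list were higher. The 5 lower genes were Plagl1, Phlda2, Ndn, Zrsr1 and Igf2r, with log2 fold changes between -1.13 and -0.33, and 1, 1 and 0 genes were called lower in those fits.

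**Figure D5:**
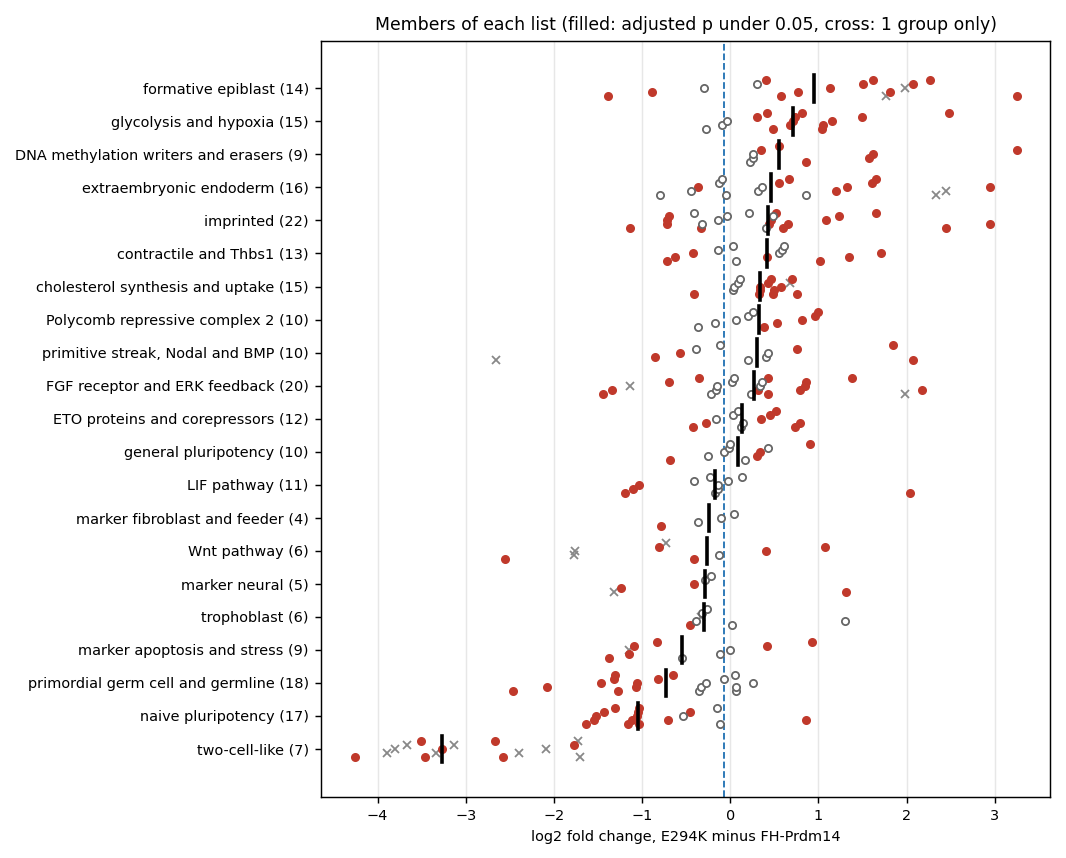
Log2 fold change between E294K and FH-Prdm14 of the tested members of each list, with the number that reached 1 RPKM in a library of each group in brackets. Filled points passed an adjusted p of 0.05, crosses are members that passed the filter through 1 group alone, black bars are list medians without them and the dashed line is the median of all genes, -0.07. Two-cell-like genes have the lowest median, -3.27, and formative genes the highest, 0.95.

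Among primitive streak, Nodal and BMP genes, 11 of 17 were tested, and Gsc had passed the filter only through FH-Prdm14. Of the other 10, 3 were higher (background 17.8%) and 2 lower (24.6%), with a median of 0.31. Lefty2, an inhibitor of Nodal, was at 43.1 and 40.8 against 13.2 and 9.64 RPKM and Id1, a target of BMP, at 63.6 and 77.3 against 15.2 and 17.4 RPKM, both higher, though Id1 was not called over 13 libraries with the histone term (limma adjusted p = 0.0675). Gsc, a homeobox gene of the organiser, was lower at 0.321 and 0.259 against 5.24 and 3.83 RPKM. Nodal itself was at 23.5 and 22.7 against 42.4 and 41.9 RPKM, but its log2 fold change of -0.86 went to -0.003 with the histone term over 15 libraries. Of the Wnt list, 9 of 14 genes were tested, and Wnt3a, Sp5 and Nkd1 had passed the filter only through FH-Prdm14. Of the other 6, 2 were higher (background 17.8%) and 3 lower (24.6%), with a median of -0.27. Wnt7b, a ligand, was at 3.50 and 3.02 against 20.2 and 23.03 RPKM, with 19.4 and 17.4 RPKM in Prdm14-/-. The E294K libraries thus lay below Prdm14-/- as well. Tcf7l1 (Tcf3), a repressor of naive genes, was at 41.9 and 38.02 against 20.3 and 17.2 RPKM, with 55.6 and 37.1 RPKM in Prdm14-/-. Both genes were called in each fit with the term. That term left 1 of the 6 genes higher in each fit and 2, 1 and 1 lower.

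Within the LIF pathway, 1 of 11 genes was higher (background 17.8%) and 3 were lower (24.6%). Stat3, which carries the signal, was at 25.8 and 27.1 against 27.04 and 26.96 RPKM, and the groups overlapped. Its targets Pim1 and Pim3, both kinases, were lower in the main fit, at 78.8 and 73.8 against 178 and 172 RPKM and 127 and 123 against 268 and 247 RPKM, while Pim2 was higher at 37.2 and 39.6 against 9.53 and 8.37 RPKM. Prdm14-/- had 244 and 138 RPKM of Pim1 and 285 and 291 RPKM of Pim3, all above E294K. Its Pim2 was at 21.5 and 12.25 RPKM, below E294K. Under the histone term, Pim3 was at a log2 fold change of 0.097 over 15 libraries in place of -1.04, Pim1 was called with the block alone (limma adjusted p = 0.164 over 15 libraries without it and 0.509 over 13), and Pim2 was called higher in each fit (largest limma adjusted p = 0.0054).

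Of the ETO proteins and corepressors, 12 of 14 were tested, 5 were higher (background 17.8%) and 2 lower (24.6%), with a median of 0.13, and none changed by 2-fold. Hdac1, a histone deacetylase, was at 186 and 173 against 102 and 104 RPKM, and Hdac3, the deacetylase of the NCoR complex, at 43.96 and 46.2 against 26.4 and 27.6 RPKM. Prdm14-/-, of the same kind of library as FH-Prdm14, had 100.4 and 104.3 RPKM of Hdac1 and 26.1 and 30.5 RPKM of Hdac3. Under the histone term, none of the list was called over 15 or 13 libraries, and 1 with the block. Of the 10 genes of Polycomb repressive complex 2, which methylates lysine 27 of histone H3, 5 were higher (background 17.8%) and none lower, with a median of 0.32. Jarid2, a subunit that guides the complex, was at 108 and 105 against 54.3 and 54.04 RPKM, with 47.85 and 49.1 RPKM in Prdm14-/-. Rbbp7, a histone chaperone in the complex, was at 141 and 132 against 67.8 and 68.3 RPKM, with 212 and 173 RPKM in Prdm14-/-. Jarid2 and Rbbp7 were also the 2 genes called higher in each fit with the term, and the list median was -0.04 with the term over 15 libraries.

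Of the contractile and matricellular list, 13 genes were tested. In 12 of the 13, both Prdm14-/- libraries lay above all 4 compared libraries. The exception was Vim, which was lower in both Prdm14-/- libraries than in the 4. Thbs1, a matrix glycoprotein, was at 3.45 and 4.29 RPKM in E294K and 1.65 and 0.858 RPKM in FH-Prdm14, against 72.3 and 53.5 RPKM in Prdm14-/-. Tagln, an actin-binding protein of smooth muscle, was at 20.9 and 26.00 against 8.54 and 5.32 RPKM, with 144 and 201 in Prdm14-/-. Both genes were called higher in E294K, among 4 of 13 that were higher (background 17.8%) and 3 that were lower (24.6%), with a median of 0.42. The summed RPKM of the list was 332 and 353 in E294K, 385 and 317 in FH-Prdm14 and 1489 and 1431 in Prdm14-/-. Thbs1 and Tagln were called higher in each fit with the histone term (largest limma adjusted p = 0.00482). These fits called 5, 9 and 4 genes of the list higher and none lower, with medians of 0.68, 1.01 and 0.75.

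Glycolysis and hypoxia genes were higher in E294K, with 12 of 15 called higher (background 17.8%), none lower and a median of 0.71. Eno1, enolase, was at 121 and 135 RPKM in E294K and 20.9 and 23.9 RPKM in FH-Prdm14 (log2 fold change 2.49, SE 0.089, limma adjusted p = 7.34e-05). It was at 14.8 and 88.2 RPKM in the 2 wt 2i+LIF libraries, split by the kind of library, and has near-identical copies. With the histone term, its log2 fold change was 0.49 over 15 libraries (adjusted p = 0.339). Hk2, a hexokinase, was at 139 and 129.6 against 76.4 and 76.1 RPKM and Egln3, an oxygen sensor, at 23.4 and 24.3 against 10.2 and 10.7 RPKM, both called in each fit. The term left 3, 3 and 7 of the 15 genes called higher.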

How the data were processed

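The authors mapped reads of 51 or 76 bases to mm9 with Tophat, took counts per RefSeq gene model with HTSeq and deposited RPKM values with the length of each of 24015 genes, for 15 RNA-seq libraries made from oligo-dT purified RNA. The deposited RPKM values, multiplied by length, were within rounding whole multiples of 1 read in 100.0% of cases, which gave the depth and the reads used by voom. A gene was kept if it reached 1 RPKM in 2 or more of the 4 compared libraries. Differences were fitted on log2(RPKM + 0.5), which makes the fold changes of low genes smaller. The main fit used limma 3.58.1 under R 4.3.3 (linear model, contrasts, moderated with a trend, 2-sided) on the 6 libraries of parental clones G6 and F10, with the clone as a block, and Benjamini-Hochberg adjusted p-values under 0.05 were called. The pairing comes from the clone names. Deviations of libraries of a clone correlated at 0.11 (E294K and FH-Prdm14), 0.04 (E294K and Prdm14-/-) and 0.34 (FH-Prdm14 and Prdm14-/-). The libraries of a group were not copies of each other, as their chi-square per degree of freedom came to 3.26 in E294K, 5.12 in FH-Prdm14 and 22.75 in Prdm14-/-. The main fit pools the spread of these groups, although that of the Prdm14-/- pair was the largest. Alternatives were no block, 4 or 15 libraries, pseudocounts of 0.1 and 1, no filter or a filter of 5 RPKM, median-of-ratios scaling, voom, adjustments for transcript GC content and gene length, and leaving out each library. Fits with the histone read level (under 100 reads per 1e6) as a term, without histone and small RNA genes, or over the genes with a GC value alone were added after the data were seen. The comparison, the 18 gene lists and the 3 marker lists were chosen with earlier results of these data known. Named were Prdm14, the ETO genes, marker genes of the study, in each direction the 12 most changed genes whose groups did not overlap and whose mean was at least 5 RPKM, and the called members of each list, at most 6 in a direction. A few genes that the rule gave are not reported here. Other genes were named after their values were seen. The fit was tested on simulated data. Python 3.11.15 with pandas 2.3.3, numpy 2.4.6 and scipy 1.17.1 did the rest. ChIP-seq samples were not analysed here.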

Additional observations from a re-analysis of the deposited data

How the results depend on the processing

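The main fit called 2222 genes higher and 3410 lower. Without the replicate block by parental clone it called 1919 higher and 3130 lower, and 11 of the 149 named genes that were called lost their call. The 4 compared libraries alone gave 3187 and 4386. All 15 libraries gave 675 higher and 1467 lower with the block and 856 and 1780 without it. Leaving out 1 library in turn gave between 1029 and 3194 higher and between 2058 and 4404 lower genes, of which 1029 and 2139 were without FH-Prdm14 F10 and 1182 and 2058 without FH-Prdm14 G6. With an arm of 1 library, the lone library is assumed to vary like the others. At least 2-fold changes, 388 higher and 1061 lower in the main fit, came to 241 and 559 with a filter of 5 RPKM. Among the genes with a GC value, 957 were at least 2-fold lower without the adjustment for GC content and 599 with it. Median-of-ratios scaling moved the share of higher genes among those called from 39.5% to 48.5% and the adjustment for gene length to 50.1%. Among the genes with a GC value, this share was 38.9% without the adjustment for GC content and 52.2% with it. With the histone read level as a term, 565 genes were higher and 815 lower (601 at least 2-fold lower) over 15 libraries without the block, 1073 and 1066 (667) with it, and 469 and 846 (672) over 13 libraries. Log2 fold changes of named genes turned in direction in these fits. Those that went from lower to higher over 15 libraries without the block were Plagl1 0.088, Pim3 0.097, Tubb3 0.18, Vim 0.36, Cyr61 0.51, Ctgf 0.78, Smad7 0.87 and Foxd3 0.92, and from higher to lower Mir6516 -0.69, Hist1h4f -0.53, Hist1h2bg -0.23, Ezh2 -0.15, Scarna13 -0.072, Tet1 -0.039 and Lef1 -0.011. Those that went from lower to higher over 15 libraries with the block were Klf2 0.028, Igf2r 0.041, Nodal 0.062, Pim3 0.079, Vim 0.080, Tdh 0.23, Plagl1 0.40, Cyr61 0.78, Tubb3 0.94, Smad7 1.12, Ctgf 1.20 and Foxd3 1.44, and from higher to lower Hist1h4f -0.89, Scarna13 -0.73, Hist1h2bg -0.71, Mir6516 -0.53, Rprl3 -0.20, Hist1h1d -0.16 and Ezh2 -0.15. Those that went from lower to higher over 13 libraries without the block were Smad7 0.007, Foxd3 0.030, Dusp4 0.070, Ctgf 0.15, Twist1 0.19, Pim3 0.20, Cyr61 0.28 and Vim 0.49, and from higher to lower Mir6516 -1.16, Tet1 -0.30, Ezh2 -0.17, Dppa4 -0.12, Tet2 -0.095, Ncor1 -0.081 and Rbbp4 -0.041. After the adjustment for GC content, Sin3b was at 0.003. The cause of these changes was not tested. Of 149 named genes called in the main fit, 57 were called in every fit in which they were tested. The 4 libraries of the comparison had between 12847489 and 16419718 reads, and with 2 libraries a side and 2 residual degrees of freedom the precision rests on the spread that limma shares over genes.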

Other observations

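Cholesterol synthesis and uptake genes were mostly higher in E294K. Of the 15 that reached 1 RPKM in a library of each group, 10 were higher (17.8% of all such genes) and 1 lower (24.6%), with a median log2 fold change of 0.34 against -0.07 for all genes tested, and no gene changed by 2-fold. Sqle, squalene epoxidase, was at 47.3 and 43.9 RPKM in E294K and 26.6 and 27.1 RPKM in FH-Prdm14. It was called higher in each of the 3 fits with the histone read level as a term (largest limma adjusted p = 0.0202), which called 6, 7 and 3 of the 15 genes higher. Hmgcs1 was listed at 0 in all 15 libraries.

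Among the markers of apoptosis and stress, 2 of 9 were higher (background 17.8%) and 4 lower (24.6%) by the same count, with a median of -0.55. Cdkn1a (p21), a cell cycle inhibitor and target of p53, was at 23.2 and 25.9 RPKM in E294K and 62.1 and 66.5 RPKM in FH-Prdm14, against 97.8 and 98.4 RPKM in Prdm14-/-. Mdm2, the ubiquitin ligase of p53, was at 40.1 and 41.3 against 73.9 and 71.99 RPKM, whereas Trp53 itself was higher at 188 and 186 against 141 and 139.6 RPKM. Cdkn1a was called lower in each fit with the histone term (largest limma adjusted p = 0.00638), and Mdm2 was not called over 13 libraries (limma adjusted p = 0.111). Trp53 was not called over 13 libraries either (limma adjusted p = 0.139). Of the neural markers, 5 were counted, with 1 higher and 2 lower, and of the fibroblast markers 4, with 1 lower. The background shares are the same, 17.8% higher and 24.6% lower. The summed RPKM of the neural list was between 49.1 and 56.98 in E294K and between 80.2 and 84.1 in FH-Prdm14, and that of the fibroblast list 16.8 and 16.3 against 21.1 and 19.5.

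Differences by chromosome were small. The median log2 difference of the genes of a chromosome ranged from -0.17 to 0.14 in clone G6 and from -0.18 to 0.18 in clone F10, the Y chromosome with 3 tested genes aside.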
